A study of Mus musculus with 6 samples.

Results

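This report concerns 10 genes of the IL-12 and IL-18 receptors and the MyD88 pathway, chosen by name: Il12rb1, Il12rb2, Il18r1, Il18rap, Il1rap, Myd88, Irak1, Irak2, Irak3 and Irak4. All 10 had a row among the 24628 genes of the deposited table. The series holds RNA-seq of 6 libraries of mouse lymphocytes, called ILC1s in its design text; ILC1s are innate lymphocytes that make interferon-γ. The floxed group held 3 libraries titled with Rora fl/fl alleles, and the cKO (conditional knockout) group held 3 titled treatment, taken as the knockout by elimination because the series text compares wild-type with cKO cells. Rora encodes the nuclear receptor RORα. The columns of the cKO group add the name Ncr1, which encodes NKp46, but the labels name neither a Cre driver nor the part of Rora deleted, and give no age, sex, organ, sort gate or number of animals; the name of the deposited table carries the tag LN, which the labels do not explain, and the series title names lymph node and liver. Nothing says that the replicates were separate animals, and every p-value below therefore reflects the spread among these libraries alone, which may be technical.

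IL-12 binds a receptor of the chains IL-12Rβ1 and IL-12Rβ2 and signals through the kinases TYK2 and JAK2 to STAT4. IL-18 binds IL-18Rα, the product of Il18r1, which pairs with the accessory chain IL-18Rβ, the product of Il18rap. The paired chains recruit the adaptor MyD88 and then the kinases of the IRAK family, which pass the signal through TRAF6 and TAK1 to NF-κB. In natural killer (NK) cells and ILC1s both cytokines together are known for inducing interferon-γ.

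The sequences upstream of 3 receptor genes are shown first, because Il18r1 was the gene that passed the test and the others encode its partner chain and a chain of the IL-12 receptor. They were read from RefSeq promoter windows on GRCm38.p6, each from 250 bases before to 50 after an annotated start, which matched 9 of the 10 genes, all but Il12rb1, with 13 windows. Only bases before the start are printed, and for Il18r1 only the 136 bases that separate it from the end of its upstream neighbour Il1rl1. Capitals mark matches on either strand to AGGTCA or GGGTCA, half-sites known to be bound by ROR receptors, or to TTCNNNGAA, a motif of STAT factors.
Il18r1 (chr1:40465416-40465551, plus strand): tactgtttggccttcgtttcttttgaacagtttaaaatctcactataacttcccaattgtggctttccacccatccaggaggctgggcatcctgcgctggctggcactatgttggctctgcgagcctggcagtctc
Il18rap (chr1:40515112-40515361, plus strand): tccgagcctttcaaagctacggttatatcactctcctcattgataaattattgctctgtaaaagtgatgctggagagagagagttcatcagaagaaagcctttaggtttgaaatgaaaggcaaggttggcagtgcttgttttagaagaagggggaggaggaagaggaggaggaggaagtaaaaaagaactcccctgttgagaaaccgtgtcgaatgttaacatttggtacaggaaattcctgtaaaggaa
Il12rb2 (chr6:67376189-67376438, minus strand): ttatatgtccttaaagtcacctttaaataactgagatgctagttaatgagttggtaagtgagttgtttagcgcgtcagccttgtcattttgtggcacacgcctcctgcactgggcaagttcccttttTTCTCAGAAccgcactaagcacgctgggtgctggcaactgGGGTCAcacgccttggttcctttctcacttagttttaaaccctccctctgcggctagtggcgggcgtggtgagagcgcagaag
The stretch before Il12rb2 held TTCNNNGAA and GGGTCA, and the stretches before Il18r1 and Il18rap held none of the 3 motifs. Over whole windows, AGGTCA was found in 3 of the 9 genes (Irak2, Irak3 and Irak4), against 16.3% of all 32851 windows. GGGTCA was found in Il12rb2, Irak3 and Irak4, against 13.7% of all windows. TTCNNNGAA was found in Il12rb2, Myd88 and the window of a downstream start of Il18r1, against 8.30% of all windows. The pattern TTCNNNGAA reads the same on both strands, and none of the motifs overlapped another in the printed stretches. A gene can have several windows, so the shares by gene and by window are not on the same footing. A match describes letters only, and a window with no match says nothing about a factor.

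Mean levels of the 10 genes over the 6 libraries ran from 1.04 to 214 RPKM, a read count divided by gene length and by library depth, so that genes can be compared. Il18r1 had the highest level, ranking 243 of 12731 tested genes by mean RPKM, and Il18rap ranked 748. Below them came Il12rb2, Irak1, Myd88, Irak4, Irak2 and Il12rb1, and Irak3 and Il1rap lay near 1 RPKM. Neighbours in this order had non-overlapping values over the 6 libraries, with 3 exceptions. Il12rb2 exceeded Irak1 in 5 of 6 libraries, Irak1 exceeded Myd88 in 3 and Irak3 exceeded Il1rap in 2. The values rested on 19756 to 25343 reads per library for Il18r1, but on 67 to 141 for Irak3 and 190 to 299 for Il1rap.

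**Figure D1:**
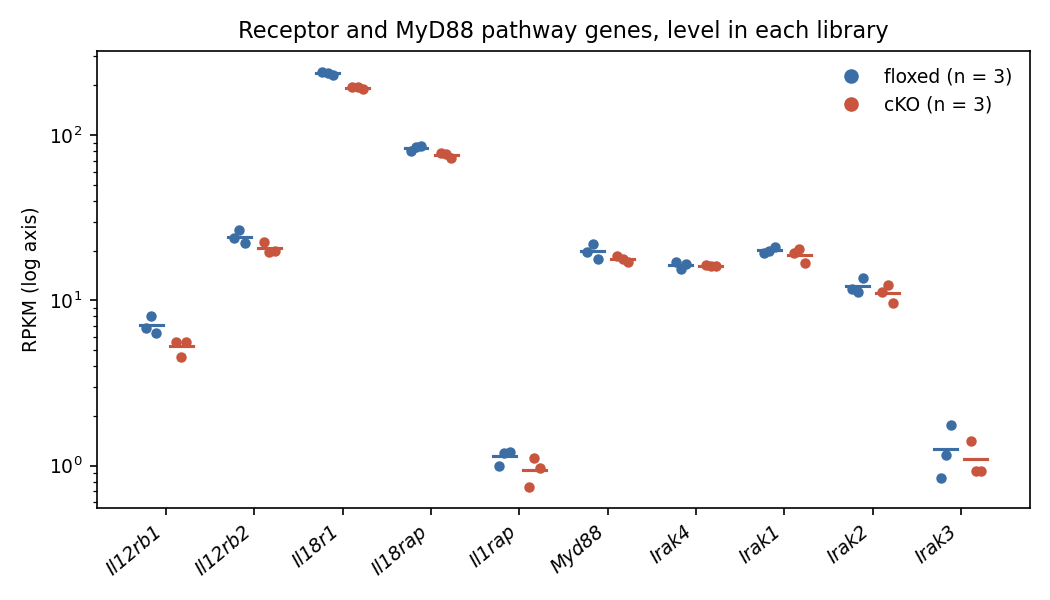
Level of each of the 10 genes in RPKM on a log axis; points are libraries, bars are group means, blue is floxed and red is cKO (3 libraries each). Il18r1 and Il18rap lie above all other genes shown, Irak3 and Il1rap lie near 1 RPKM, and in Il12rb1, Il18r1 and Il18rap every cKO point lies below every floxed point.

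Il18r1 fell in the cKO libraries, and none of the other 9 genes passed the test. The test was limma on log2(RPKM + 1) over the 12731 genes that reached 1 RPKM in 3 or more of the 6 libraries, with a Benjamini-Hochberg adjusted p under 0.05. Of the 10 genes, 1 passed as lower and 0 as higher, beside 0.668% and 0.652% of all tested genes. At an unadjusted p under 0.05, 4 lay lower and 0 higher, beside 8.6% and 5.55%, and limma voom on recovered reads also passed 1 as lower and 0 as higher, beside 2.41% and 1.78%. All 10 differences lay below 0 in this fit, although that of Irak4 turned above 0 under both other scalings and without floxed replicate 1; 57.3% of all tested genes lay below 0. The 10 genes had a median of -0.13 on the log2 scale against -0.03 over all tested genes. In 3 of the 10 (Il12rb1, Il18r1 and Il18rap) every cKO value lay below every floxed value, which held for 12.7% of all tested genes, and the opposite held for 0 of the 10 against 7.61%. These counts share the same 6 libraries. All 10 genes passed the filter, Il1rap through 3 floxed and 1 cKO libraries and Irak3 through 2 floxed and 1 cKO.

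**Figure D2:**
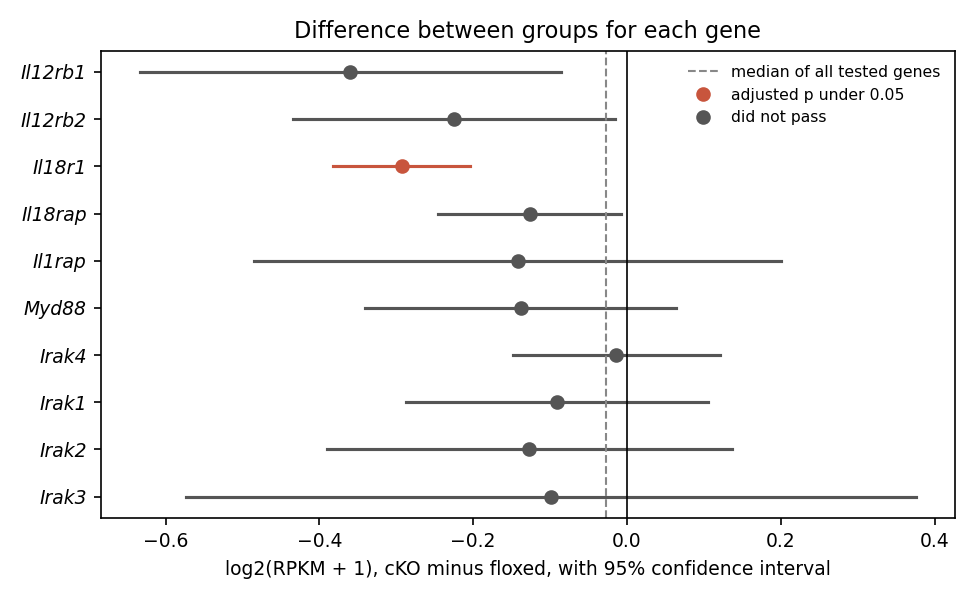
Difference in log2(RPKM + 1), cKO minus floxed, for each of the 10 genes, with limma's 95% confidence interval; the dashed line is the median of all tested genes and red marks an adjusted p under 0.05. All 10 points lie left of 0, that of Irak4 at -0.01 turning above 0 under both other scalings and without floxed replicate 1, and Il18r1 is the gene that passed.

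The IL-18 receptor was the most highly expressed pair. Il18r1, which encodes the ligand-binding chain IL-18Rα (chromosome 1, 40465552 to 40500854, plus strand, mm10), was at 242, 236 and 230.25 RPKM in the floxed libraries and 194, 194 and 189 RPKM in the cKO libraries. The cKO values lay within a narrow range, all below the lowest floxed value. The cKO mean was 81.5% of the floxed mean, with a log2 difference of -0.29 (SE 0.04, 95% confidence interval -0.38 to -0.20, limma adjusted p = 0.0213). In these bulk libraries, fewer cells with the receptor and less RNA per cell cannot be told apart. The same cKO libraries held less Xist, the RNA that silences an X chromosome (31.9 ± 3.16 RPKM in floxed and 9.43 ± 0.394 RPKM in cKO libraries, SD, n = 3 each; limma adjusted p = 0.000708). They held more RNA of the Y-linked gene Ddx3y (10.4 ± 0.498 and 20.8 ± 0.438 RPKM, n = 3 each; limma adjusted p = 0.00165), and the labels give no sex. The part of this difference in the level of Il18r1 and of the other genes below was not tested.

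Il18rap, which encodes the signalling partner IL-18Rβ (chromosome 1, 40515362 to 40551705, plus strand), was at 79.6, 84.4 and 85.7 RPKM in floxed and 78.4, 77.3 and 72.8 RPKM in cKO libraries. The groups did not overlap, but the highest cKO value came close to the lowest floxed value. The difference between groups was -0.13 on the log2 scale (SE 0.05, 95% confidence interval -0.25 to -0.01, limma adjusted p = 0.326) and did not pass. The ratio of Il18r1 to Il18rap, both per length, was 3.05, 2.79 and 2.69 in floxed and 2.48, 2.51 and 2.60 in cKO libraries. The ratio was lower in each cKO library than in each floxed library, and it was not tested.

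The call of Il18r1 depended on all 6 libraries being present. Without any single library its limma adjusted p lay between 0.0606 and 0.0916, while its log2 difference stayed between -0.31 and -0.27. It also missed the threshold with no filter on low values (adjusted p = 0.0511) and without a mean-variance trend (adjusted p = 0.119). Voom on recovered reads gave the same difference of -0.29 and an adjusted p of 8.89e-07. The difference was negative in all 14 alternatives other than the replicate block, whose value is given with the dependence on processing, and passed in 6 of the 14.

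**Figure D3:**
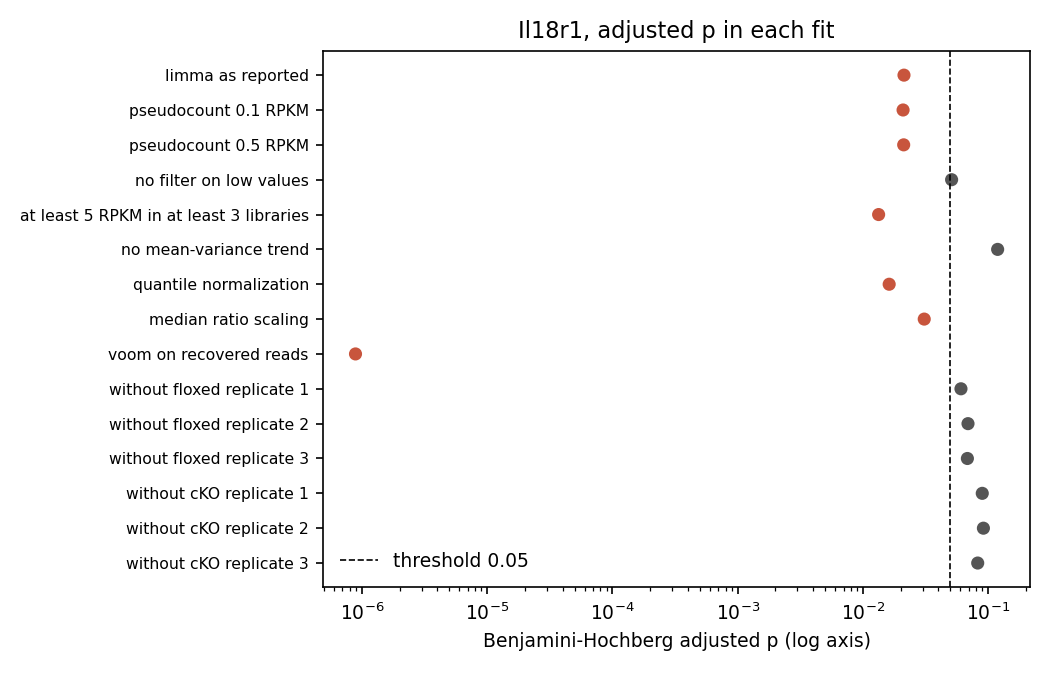
Adjusted p of Il18r1 on a log axis in the reported limma fit and 14 alternatives, the replicate block left out; the dashed line is the threshold of 0.05 and red points passed. The 6 fits that leave out a library lie at 0.0606 to 0.0916, right of the line, and voom on recovered reads gave 8.89e-07.

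Il18r1 and Il18rap lie next to each other in the interleukin-1 receptor cluster of chromosome 1, separated by 14507 bases, and the other receptor genes of this cluster were at low levels. Il1rl1, which encodes the IL-33 receptor ST2 known from ILC2s, ends 136 bases before Il18r1 on the same strand, yet the floxed libraries held 0.128 ± 0.0967 RPKM of it and the cKO libraries 0.126 ± 0.0189 RPKM (SD, n = 3 each). Il1r1, the IL-1 receptor gene, was at 1.08 ± 0.158 and 1.497 ± 0.369 RPKM (n = 3 each; limma adjusted p = 0.547). Il1rl2, which encodes the IL-36 receptor, was at 0.394 ± 0.140 and 0.495 ± 0.228 RPKM, and the decoy receptor gene Il1r2 at 0.0254 ± 0.0260 and 0.0158 ± 0.0274 RPKM (n = 3 each). Il1rl1, Il1rl2 and Il1r2 did not reach the filter and were not tested.

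**Figure D4:**
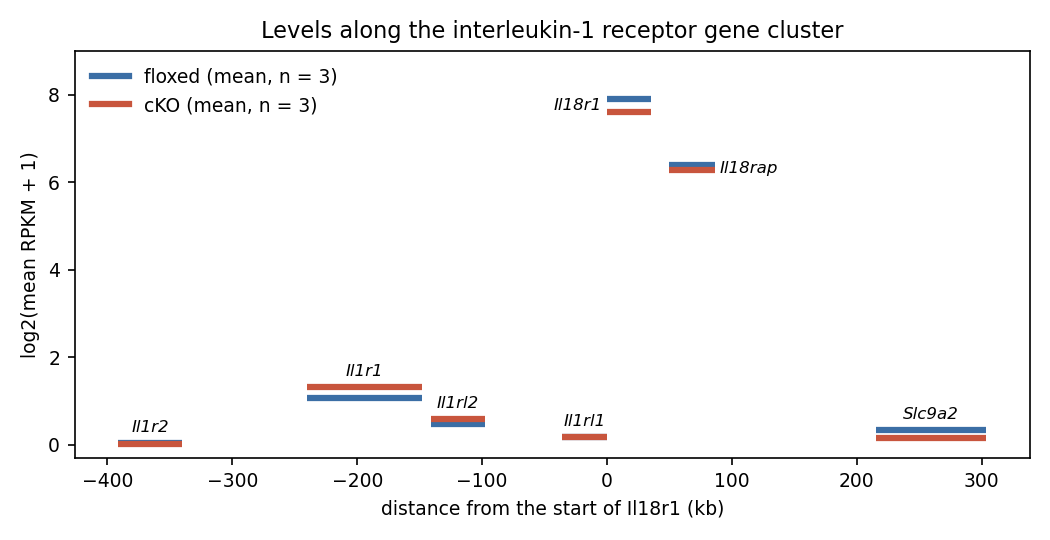
Mean level of the named genes of the interleukin-1 receptor cluster as log2(mean RPKM + 1), drawn over each gene's extent in kb from the start of Il18r1; blue is floxed and red is cKO (means of 3 libraries each). Il18r1 and Il18rap stand above their neighbours on both sides, and Il1rl1, which ends next to Il18r1, lies near 0.

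Both IL-12 receptor chains had lower means in the cKO libraries, and neither passed the test. Il12rb1, which encodes the chain shared with the IL-23 receptor (chromosome 8, 70808449 to 70821424, plus strand), was at 6.83, 8.002 and 6.33 RPKM in floxed and 5.62, 4.57 and 5.63 RPKM in cKO libraries. The groups did not overlap, and the cKO mean was 74.8% of the floxed mean, the largest relative difference of the 10 genes. The difference between groups was -0.36 on the log2 scale (SE 0.11, 95% confidence interval -0.63 to -0.09, limma adjusted p = 0.239). Over the 14 alternatives other than the replicate block the adjusted p ranged from 0.0776, with voom on recovered reads, to 0.429, and the difference from -0.43 to -0.28.

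Il12rb2, which encodes the chain specific to IL-12 (chromosome 6, 67291318 to 67376188, minus strand), was at 23.7, 26.7 and 22.4 RPKM in floxed and 22.6, 19.5 and 19.8 RPKM in cKO libraries. One cKO library exceeded the lowest floxed library, so the groups overlapped. The difference between groups was -0.22 on the log2 scale (SE 0.09, 95% confidence interval -0.43 to -0.02, limma adjusted p = 0.322). Of its exon bases, 40.04% are shared with Serbp1 on the opposite strand, which was at 65.3 ± 1.72 and 64.6 ± 1.02 RPKM (SD, n = 3 each), and no source used here says whether the counting used strand, so reads of the pair may not be separated. Il12rb2 exceeded Il12rb1 by 3.45 ± 0.1001 times in floxed and 3.93 ± 0.388 times in cKO libraries (n = 3 each), with overlapping groups.

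Il1rap encodes the accessory chain used by the receptors for IL-1, IL-33 and IL-36. It was at 1.001, 1.19 and 1.22 RPKM in floxed and 0.745, 1.11 and 0.966 RPKM in cKO libraries, and the groups overlapped. The log2 difference was -0.14 (95% confidence interval -0.49 to 0.20, limma adjusted p = 0.729), an interval that covers differences of either sign. Of its exon bases, 4.86% are shared with the predicted gene Gm20319 on the opposite strand.

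Myd88 and the 4 IRAK genes overlapped between the groups, and none of them passed. Myd88, the adaptor of the IL-18 receptor and of most Toll-like receptors (chromosome 9, 119335934 to 119341411, minus strand), was at 19.6, 22.0 and 17.8 RPKM in floxed and 18.6, 17.7 and 17.1 RPKM in cKO libraries. Its groups overlapped, with a log2 difference of -0.14 (95% confidence interval -0.34 to 0.06, limma adjusted p = 0.540). Its exons share 11.3% of their bases with Acaa1a on the opposite strand.

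Irak4, the kinase that joins MyD88 first (chromosome 15, 94543643 to 94581815, plus strand), was at 16.99, 15.5 and 16.6 RPKM in floxed and 16.3, 16.05 and 16.2 RPKM in cKO libraries. All cKO values lay inside the floxed range. The log2 difference was -0.01 (95% confidence interval -0.15 to 0.12, limma adjusted p = 0.942), and its sign turned with quantile normalization (0.01), median ratio scaling (0.01) and without floxed replicate 1 (0.01).

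Irak1, a kinase phosphorylated by IRAK4 (chromosome X, 74013914 to 74023918, minus strand), was at 19.3, 19.9 and 21.1 RPKM in floxed and 19.4, 20.4 and 16.8 RPKM in cKO libraries. The groups overlapped, and cKO replicate 3 stood lowest; the log2 difference was -0.09 (95% confidence interval -0.29 to 0.11, limma adjusted p = 0.694). Irak1 is X-linked, and its values stand beside the difference in Xist and Ddx3y given above.

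Irak2, which encodes the IRAK family member known for sustaining the response, was at 11.7, 11.3 and 13.6 RPKM in floxed and 11.2, 12.4 and 9.63 RPKM in cKO libraries. Its groups overlapped (log2 difference -0.13, 95% confidence interval -0.39 to 0.14, limma adjusted p = 0.677). Irak3, which encodes IRAK-M, an inhibitor of this pathway best known from macrophages, was at 0.839, 1.16 and 1.77 RPKM in floxed and 1.42, 0.928 and 0.925 RPKM in cKO libraries. The lowest of its 6 values was a floxed library and so was the highest (log2 difference -0.10, 95% confidence interval -0.57 to 0.38, limma adjusted p = 0.876).

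Among the other genes of these pathways, Socs3, Tnfaip3 and Zc3h12a rose in the cKO libraries. In the IL-12 receptor family and its signalling, 10 of 16 listed genes were tested, with a median log2 difference of -0.03. Of these 10, 1 rose and 0 fell, beside 0.652% and 0.668% of all tested genes. Socs3, a feedback inhibitor of STAT signalling, was at 73.9, 68.5 and 67.6 RPKM in floxed and 104, 98.9 and 100.4 RPKM in cKO libraries (log2 difference 0.53, limma adjusted p = 0.00606). Its groups lay wide apart. The transcription factor gene Stat4 was at 94.2 ± 3.46 and 92.6 ± 3.08 RPKM (SD, n = 3 each; adjusted p = 0.877 by limma) and the kinase gene Jak2 at 56.5 ± 3.38 and 56.0 ± 2.60 RPKM (adjusted p = 0.957). Il27ra, the IL-27 receptor gene, was at 26.2 ± 0.117 and 21.8 ± 1.99 RPKM (limma adjusted p = 0.184). Voom on recovered reads passed Il27ra as lower (adjusted p = 0.0476). Cish, of the same list and named after its value was seen, was at 2.28 ± 0.0787 and 1.33 ± 0.255 RPKM. Every cKO value of Cish lay below every floxed value, and it did not pass (log2 difference -0.49, limma adjusted p = 0.159).

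Of the steps below MyD88, 23 of 27 listed genes were tested, with a median log2 difference of -0.01. Of these 23, 2 rose and 0 fell, beside 0.652% and 0.668% of all tested genes, and 21 did not pass. Tnfaip3, which encodes the NF-κB inhibitor A20, was at 182, 203 and 191 RPKM in floxed and 251, 254 and 245 RPKM in cKO libraries (log2 difference 0.38, limma adjusted p = 0.0215). Zc3h12a, which encodes the RNA-degrading enzyme Regnase-1, was at 8.90, 9.75 and 8.77 RPKM in floxed and 14.0, 12.9 and 14.4 RPKM in cKO libraries (log2 difference 0.54, limma adjusted p = 0.0231). In both genes every cKO value exceeded every floxed value. The call of Zc3h12a was lost without any single library, with adjusted p between 0.0510 and 0.0974, and that of Tnfaip3 without floxed replicate 3 or any cKO replicate (0.0711 to 0.0972). Both calls were also lost with no filter on low values and without a mean-variance trend (adjusted p = 0.0574 and 0.0980 for Tnfaip3, 0.0511 and 0.0505 for Zc3h12a in limma). Nfkbia, which encodes the inhibitor IκBα, was at 258 ± 21.3 and 295 ± 24.8 RPKM (SD, n = 3 each; limma adjusted p = 0.354). Tab2, a partner of TAK1, was at 79.4 ± 2.57 and 71.2 ± 3.07 RPKM (limma adjusted p = 0.235), and voom on recovered reads passed it as lower (adjusted p = 0.0386). Tnip1, a partner of A20, was at 90.9 ± 4.65 and 89.3 ± 1.92 RPKM, and the NF-κB subunit gene Rela at 47.0 ± 1.99 and 45.2 ± 1.68 RPKM (limma adjusted p = 0.873 and 0.712).

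Most listed ligands and relatives of these receptors did not reach the filter, Sigirr being the most abundant of those that did. Of 17 listed genes of the interleukin-1 receptor family and its ligands, 4 were tested and 0 passed (median log2 difference -0.16). In limma 0 of these 4 had an unadjusted p under 0.05. Of all tested genes, 0.652% passed as higher and 0.668% as lower, and 5.55% and 8.6% had an unadjusted p under 0.05. Sigirr, an inhibitory receptor of this family, was at 11.3 ± 1.84 and 10.1 ± 0.227 RPKM (SD, n = 3 each; limma adjusted p = 0.662). The IL-18 antagonist gene Il18bp was at 2.66 ± 0.417 and 2.30 ± 0.938 RPKM, and Il18 itself at 1.14 ± 0.168 and 0.777 ± 0.459 RPKM (limma adjusted p = 0.783 and 0.607). Of 12 Toll-like receptor and adaptor genes, 3 were tested and 0 passed, and 9 stayed under 1 RPKM in all 6 libraries. Tlr4 was at 1.33 ± 0.150 and 1.37 ± 0.0448 RPKM, the adaptor gene Tirap at 2.34 ± 0.378 and 2.47 ± 0.385 RPKM and the adaptor gene Ticam1 at 3.75 ± 0.167 and 3.14 ± 0.611 RPKM (limma adjusted p = 0.944, 0.895 and 0.535).

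Genes listed here as induced by IL-12 with IL-18 passed in both directions, Eomes being the only 1 that passed as higher. Whether these cytokines induce each listed gene in these cells was not tested. Of 18 listed genes 17 were tested, with a median log2 difference of 0.06. Of these 17, 1 rose and 4 fell, beside 0.652% and 0.668% of all tested genes, and Il18r1 was among the 4. Ifng, the gene of interferon-γ, was at 63.7, 55.8 and 59.4 RPKM in floxed and 69.3, 67.1 and 68.1 RPKM in cKO libraries. Every cKO value lay above every floxed value, but the log2 difference of 0.19 did not pass (95% confidence interval 0.06 to 0.33, limma adjusted p = 0.200). Il2ra, which encodes CD25, fell from 14.5 ± 0.638 to 7.45 ± 0.725 RPKM (SD, n = 3 each; limma adjusted p = 0.00649). The lymphotoxin gene Lta fell from 24.6 ± 1.84 to 17.8 ± 0.469 RPKM (adjusted p = 0.0377 by limma) and the granzyme gene Gzmb, named after its value was seen, from 66.3 ± 3.24 to 49.6 ± 3.86 RPKM (adjusted p = 0.0499). Eomes, a T-box factor gene, rose from 42.4 ± 2.44 to 65.8 ± 4.31 RPKM (n = 3 each; limma adjusted p = 0.0106). Eomes lost its call without floxed replicate 3 or cKO replicate 1 or 3 (adjusted p = 0.0585, 0.0526 and 0.0556 in limma). Lta lost it without any library but floxed replicate 3 (0.108 to 0.149) and Gzmb without any of the 6 (0.0825 to 0.168). Lta also lost it with no filter (adjusted p = 0.0759 in limma), no trend (0.0946) and quantile normalization (0.0501). Gzmb kept it with the stricter filter and voom alone, and lay at 0.0501 to 0.121 under the other pseudocounts, no filter, no trend and both scalings. The chemokine genes Xcl1 (251 ± 37.3 and 272 ± 37.1 RPKM), Ccl3 (58.8 ± 10.5 and 68.3 ± 2.08 RPKM) and Ccl5 (131 ± 9.64 and 139 ± 7.13 RPKM) did not pass (limma adjusted p = 0.773, 0.464 and 0.625).

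**Figure D5:**
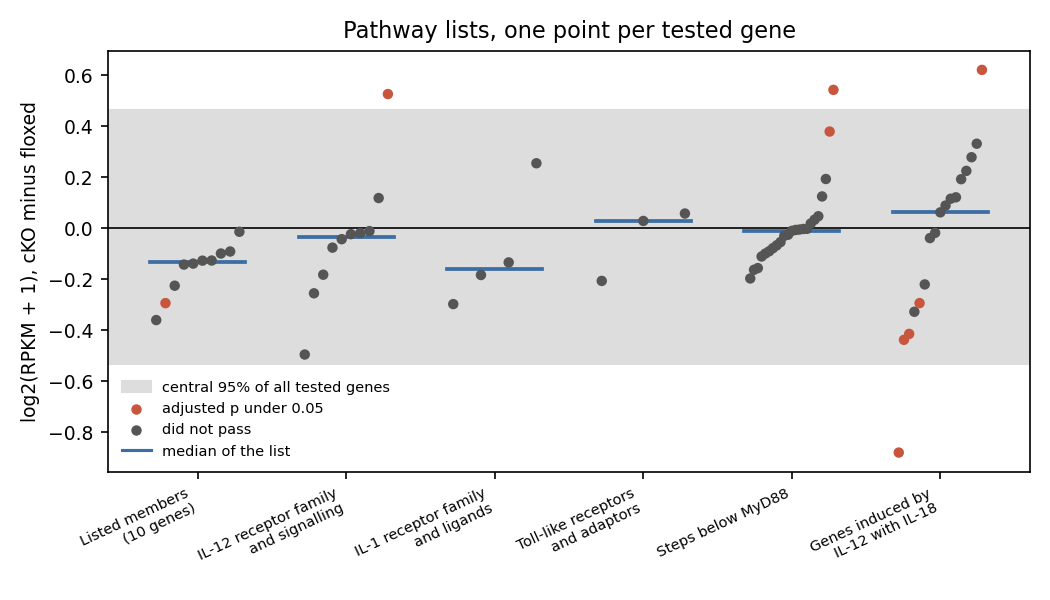
Difference in log2(RPKM + 1), cKO minus floxed, for the 10 genes and the tested genes of 5 pathway lists, each point a gene and each blue bar a list median; red points passed and the grey band holds the central 95% of all tested genes (-0.53 to 0.47). The points of the 10 genes lie below 0 and inside the band, Irak4 turning above 0 under both other scalings and without floxed replicate 1. The genes listed as induced by IL-12 with IL-18 lie on both sides of 0.

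The genes whose profile over the 6 libraries was most like that of Il18r1 were Gabbr1, Fubp1, Ntng2, Ifi209 and Prr13. Likeness was the root mean square distance between log2(RPKM + 1) profiles, each centred on its own mean, and these 5 lay at 0.02 to 0.03. Ifi209, an interferon-inducible gene, was at 94.6 ± 0.383 and 76.6 ± 1.43 RPKM, and Prr13 at 88.0 ± 0.487 and 72.9 ± 0.915 RPKM (SD, n = 3 each). For Il12rb1 the nearest genes were Zfp932, Nebl, Snx33, Zfp850 and Fam206a, at 0.05 to 0.06. With 6 libraries in 2 groups, any gene with a difference of like size ranks high.

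Each library held between 20152146 and 22440170 recovered reads. Rora was at 7.42 ± 0.493 RPKM in floxed and 6.07 ± 0.334 RPKM in cKO libraries (SD, n = 3 each; limma adjusted p = 0.242), a whole-gene value that does not check the deletion. Markers of type 1 ILCs and NK cells were present, with Ncr1 at 372 ± 10.8 and 246 ± 12.5 RPKM, Klrb1c at 103 ± 5.09 and 99.4 ± 4.01 RPKM and Itga1 at 6.93 ± 0.393 and 5.34 ± 0.503 RPKM (n = 3 each). Of the 10 listed markers of this kind, 1 rose and 2 fell, beside 0.652% and 0.668% of all tested genes, and 7 lay below 0. Eomes, given above, was the 1 that rose. The 2 that fell were Ncr1 (log2 difference -0.60, adjusted p = 0.00446 by limma) and Cxcr6. Cxcr6 was at 8.90 ± 1.04 and 4.69 ± 0.453 RPKM (adjusted p = 0.0241 by limma). Nkg7 and Itga2 lay above 0 (log2 difference 0.08 and 0.03) and did not pass. Summed levels of 12 macrophage and monocyte markers were 64.6 to 68.8 RPKM in floxed and 60.9 to 63.2 RPKM in cKO libraries, with 6 of the 12 under 1 RPKM throughout. Of the 5 tested, 0 passed and 4 lay below 0. Ccr2 was at 27.3 ± 0.811 and 29.9 ± 1.24 RPKM and Lyz2 at 23.4 ± 1.69 and 20.9 ± 0.913 RPKM. Every cKO value lay above every floxed value for Ccr2, and below for Cd68 and Ly6c2. Summed levels of 9 dendritic cell markers were 151 to 159 and 127 to 128 RPKM, and those of 8 B cell markers 77.1 to 81.1 and 78.0 to 88.4 RPKM. Of the 4 tested dendritic cell markers, Cd74 and H2-Ab1 passed as lower (log2 difference -0.75 and -0.62). Itgax and Zbtb46 lay above 0 and did not pass (0.23 and 0.11, adjusted p = 0.206 and 0.772 by limma). Every cKO value of Itgax, the most abundant of the 4, lay above every floxed value. The B cell sum was mostly Ighm, at 65.6 ± 2.18 and 76.2 ± 5.60 RPKM (adjusted p = 0.208 by limma), whereas Cd22 fell from 9.93 ± 0.285 to 6.49 ± 0.649 RPKM (adjusted p = 0.0353) and the median log2 difference of the 3 tested B cell markers was -0.55. For 9 T cell markers the sums were 74.2 to 75.1 and 67.3 to 74.8 RPKM. Of the 7 tested, 0 passed as higher and 1 as lower, beside 0.652% and 0.668% of all tested genes, and 5 lay below 0. Cd3e was the 1 that fell, from 5.35 ± 0.430 to 2.93 ± 0.142 RPKM (adjusted p = 0.0232 by limma). Cd4, the most abundant of the 9, had means of 27.7 RPKM in floxed and 27.6 RPKM in cKO libraries. The log2 difference of Cd3g was -0.01. Cd3d and Cd28 lay above 0 (0.05 and 0.19, adjusted p = 0.895 and 0.455 by limma). Cd8b1 was at 1.27 ± 0.220 and 0.265 ± 0.190 RPKM, with all cKO values below the floxed ones (adjusted p = 0.0976 by limma). The 26 immediate-early genes summed to 2291 to 2350 RPKM in floxed and 3668 to 3697 RPKM in cKO libraries. Of the 25 tested, 18 rose, Socs3 among them, and 0 fell, beside 0.652% and 0.668% of all tested genes. In Egr3 and Nr4a3 every cKO value lay below every floxed value, and neither passed (adjusted p = 0.156 and 0.0882 by limma). The lists were chosen with earlier results of these data known, so such shares are not a test of a list. No listed marker with a value was at 0 in all 6 libraries. The part of these differences in the results above was not tested.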

How the data were processed

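The deposited table holds RPKM, made by the authors from reads per gene, gene length and depth. The submitters' processing notes name mm10, edgeR 3.12.1, Subread 1.5.1, featureCounts and STAR 2.5.3a, without their roles. Strand use in counting and duplicate removal were not given in the sources used here. Multiplying RPKM by gene length recovered whole reads (100% of values, tolerance 0.01 reads), whose sum is the depth.

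The fit used limma 3.58.1 in R 4.3.3 (lmFit, eBayes with trend) on log2(RPKM + 1), which understates the change of low genes. It had no covariates and took all 6 libraries. Genes reaching 1 RPKM in 3 or more libraries entered. Tests were two-sided, with Benjamini-Hochberg adjustment over all 12731 genes and a threshold of 0.05. The fit was tested on simulated data. No pair of libraries was identical or as close as sampling noise, and each was treated as 1 replicate. This does not show that they came from separate animals. Alternatives changed the pseudocount, filter, trend, scaling or model, added a replicate block or left out a library.

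The members and lists were chosen with earlier results of these data known. All 10 members are described; per list, at most 4 passing genes by smallest p and 4 others by highest RPKM are named, and the 5 most like profiles are given for the 2 members with the smallest p. One gene that this rule names is not reported here.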

Additional observations from a re-analysis of the deposited data

How the results depend on the processing

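The number of passing genes depended on the fit. Against 83 higher and 85 lower, no filter on low values gave 44 and 36, no mean-variance trend 39 and 35, and voom on recovered reads 226 and 307. Leaving out 1 library gave 33 to 51 higher and 27 to 39 lower genes. Of the 10 genes, 0 passed as higher in any fit. The number passing as lower was 1, Il18r1, in the reported fit. It was 0 with no filter, 0 without the trend, and 0 to 0 without any 1 library; the other pseudocounts, the stricter filter, both scalings and voom each gave 1. The cause was not tested, and the fits that leave out a library also hold fewer samples.

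A replicate block gave 37 higher and 23 lower genes, and 0 of the 10 genes as lower (Il18r1 at adjusted p = 0.0819 by limma); it changed no other call among them. Among the other named genes it ended the calls of Tnfaip3, Zc3h12a, Lta and Gzmb (adjusted p = 0.0688, 0.114, 0.106 and 0.0807). Deviations of libraries with the same number correlated at -0.03, 0.01 and 0.04, and not every library correlated best with its own number. These values cannot show whether a shared number marks a pairing, and no label says that it does.

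Depth limits Irak3 and Il1rap, which rested on 67 to 299 reads per library. Irak3 left the test in 4 alternatives and Il1rap in 1, by the filter.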
